A study of Mus musculus with 48 samples.

Results

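The polysomal and cytoplasmic RNA of pancreatic cancer cells treated with N6L was compared in the 3 treated cultures of the series. Members were chosen by their labels alone: every sample of a treated culture entered, which gave 24 of the 48 samples, that is 6 of 12 libraries after technical replicates were summed, from 3 of 6 cultures. The cells, called mPDAC, are mouse pancreatic ductal adenocarcinoma cells, labelled with the genetic background FVB/N x C57BL6 and the age 8-week-old. N6L is a pseudopeptide that binds nucleolin, and the treated cultures received 50 µM for 48 h, whereas the non-treated (NT) cultures received none. All cultures were exposed to emetine, which stalls elongating ribosomes on their mRNAs, before lysis. Nuclei and mitochondria were spun out, an aliquot of the cleared lysate gave the cytoplasmic library, and the pooled heavy fractions of a sucrose gradient gave the polysomal library. As both libraries of a culture come from the same lysate, each culture carries its own polysome-to-cytoplasm ratio. The labels do not say whether the cultures were grown independently, so the spread between them may be partly technical.

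An mRNA that carries several ribosomes sediments in the polysomal fraction, and its share there depends on how often initiation occurs and on how many ribosomes its reading frame can hold. Initiation is governed by the eIF4F and eIF3 complexes, and mRNAs of ribosomal proteins and elongation factors, which begin with a terminal oligopyrimidine tract (5′TOP), are controlled together through the mTOR pathway. Nucleolin, the target of N6L, is an abundant nucleolar RNA-binding protein of ribosome production. Libraries were scaled with TMM, which sets the bulk of genes near a ratio of 0, so a log2 ratio below 0 means that a transcript was less represented in polysomes relative to most others. These counts do not give the absolute amount of polysomal RNA, the absorbance that the study recorded along the gradients was not used here, and in bulk lysates fewer cells with a transcript and less of it per cell cannot be told apart.

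The 6 N6L libraries held between 23576921 and 44972333 counts. Levels are given as CPM, counts scaled to a common library total after TMM adjustment of each total. The 10 markers of ductal epithelium, led by Krt18, Krt8 and Krt19, summed to 6564.6 to 7995.0 CPM in cytoplasm and 8705.8 to 10797.0 CPM in polysomes, although Epcam and Cldn4 stayed under 1 CPM. The 5 fibroblast, 3 endothelial and 4 endocrine markers stayed under 1 CPM in all 6 libraries, as did 3 of 4 leukocyte and 5 of 6 acinar markers. The exceptions were Cd68, at 0.906 to 2.03 CPM, and Cela1, at 27.6 to 82.7 CPM. For 3 technical replicates of the cytoplasm of culture 2, title and description name different culture numbers. They differed from the remaining replicate of culture 2 by counting noise only (chi-square per degree of freedom 1.01 to 1.04), against 11.2 to 11.4 from culture 1, and were kept with culture 2 as titled.

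The N6L fractions differed over a large part of the transcriptome. Of 13889 genes tested, 3622 were higher in polysomes (26.1%) and 3838 lower (27.6%), which is 53.7% in all at a false discovery rate (FDR) of 0.05 by edgeR's quasi-likelihood test. Higher genes had a median log2 ratio of 0.64 and lower genes one of −0.85, and 366 genes were at or above 1 where 1440 were at or below −1. The 3 polysomal libraries lay entirely above the 3 cytoplasmic ones for 3950 genes (28.4%) and entirely below for 3959 genes (28.5%). Among the genes that passed, 7407 had the same sign in every N6L culture. With library totals alone as the scale, the median of all genes moved from 0.02 to −0.11 and the split became 2700 higher and 4462 lower, so ratios within about this shift of 0 have no secure direction.

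**Figure D1:**
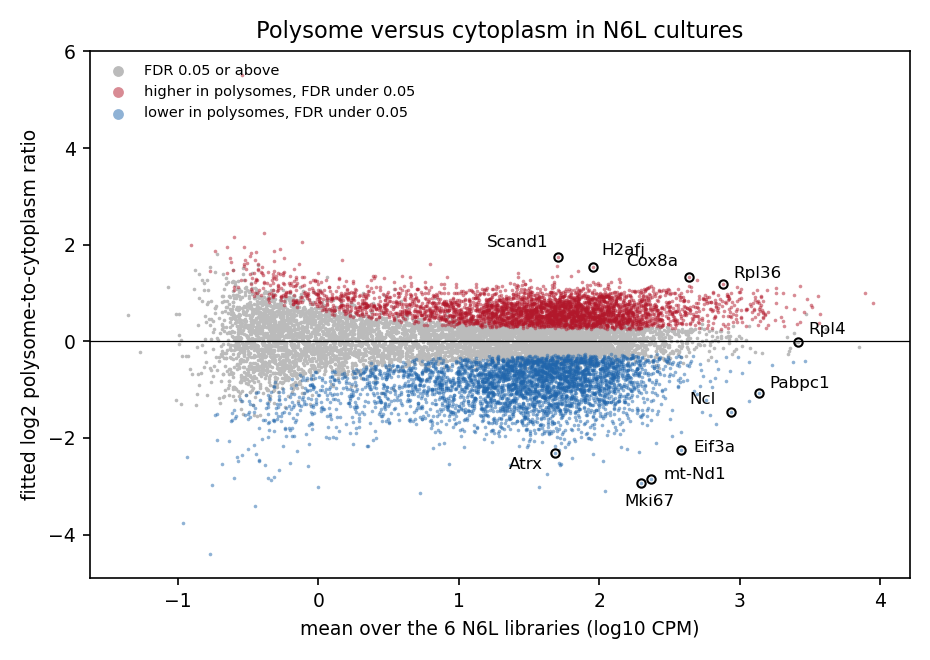
Fitted log2 polysome-to-cytoplasm ratio of each gene tested in N6L cultures (vertical) against its mean over the 6 N6L libraries in log10 CPM (horizontal); red and blue points passed an FDR of 0.05 and open circles mark named genes. Mki67 and mt-Nd1 lie near the lower edge among well expressed genes, Scand1 and H2afj near the upper edge, and Rpl4 lies at −0.02.

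The 3 cultures differed in the size of the separation, and 10288 of all 13889 genes (74.1%) had the same sign in each. The standard deviation of the log2 ratios over all genes was 0.53 in culture 1, 0.69 in culture 2 and 1.04 in culture 3, and 5.03%, 12.1% and 34.3% of genes lay beyond 1 in either direction. Culture 3 therefore had the widest range and culture 1 the narrowest. In the NT cultures this standard deviation was 0.48 to 0.51. The N6L cultures averaged 0.75 ± 0.26 and the NT cultures 0.49 ± 0.01 (SD, n = 3 each), with p = 0.1 in a two-sided exact permutation test, the smallest value that 3 against 3 cultures allow. Across the 13889 genes, the profiles of ratios had a Spearman rho of 0.72 between cultures 1 and 2, 0.73 between 1 and 3, and 0.87 between 2 and 3. Genes are not independent replicates.

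**Figure D2:**
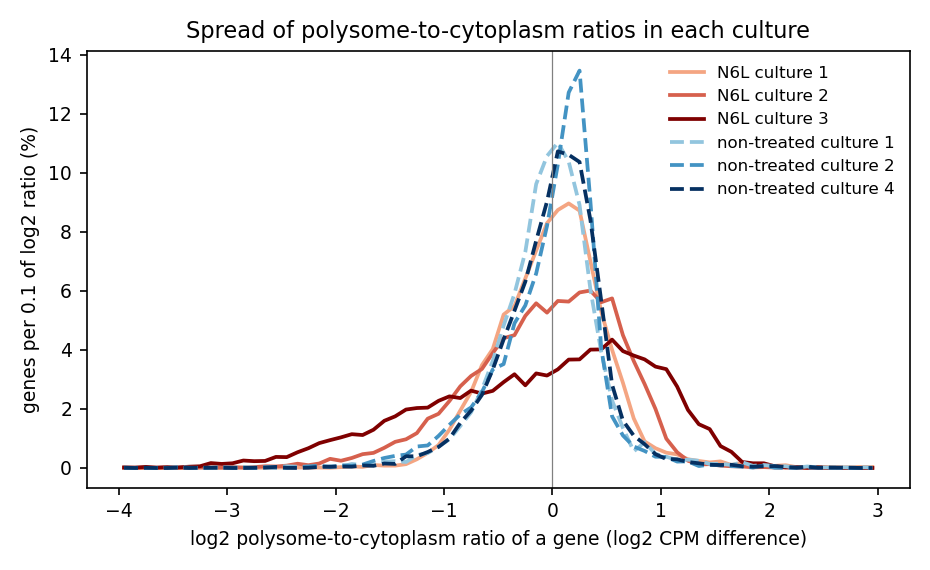
Share of the 13889 genes (vertical, % per 0.1 of log2 ratio) at each log2 polysome-to-cytoplasm ratio (horizontal), with solid lines for the 3 N6L cultures and dashed lines for the 3 NT cultures; the axis runs from −4 to 3. N6L culture 3 has the broadest curve (SD 1.04), and N6L culture 1 (SD 0.53) lies close to the NT cultures (SD 0.48 to 0.51).

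Among nuclear protein-coding genes averaging 10 CPM or more, the 9 with the lowest ratios included Mki67, Bod1l, Cenpe and Atrx. Mki67 (chr7:135689784-135716361, GRCm38), which coats mitotic chromosomes, stood at 179, 424 and 438 CPM in the cytoplasm of cultures 1, 2 and 3 and at 81.7, 46.6 and 19.99 CPM in their polysomes. The fractions did not overlap, and the gap was smallest in culture 1, where the cytoplasmic level was also the lowest. The fitted log2 ratio was −2.93 ± 0.56 (SE), with an FDR of 0.0030. Here and below, SE and FDR rest on a spread estimated over all 12 libraries, N6L and NT. They do not measure the spread among the 3 N6L cultures alone, whose Mki67 ratios were −1.13, −3.18 and −4.45 (SD 1.67). Bod1l went from 54.9, 106 and 106 CPM to 27.4, 16.4 and 6.17 CPM (−2.56). Cenpe, the kinetochore motor, went from 44.9, 110 and 113 CPM to 28.2, 16.1 and 6.09 CPM (−2.53). Kif20b, Pcm1 and Atrx, which act in cytokinesis, at centriolar satellites and in chromatin remodelling, had ratios of −2.52, −2.41 and −2.31. The cytoskeletal linkers Map1b and Dst gave −2.55 and −2.32, and Prrc2c gave −2.48. The other 3 of the 12 lowest genes were the mitochondrially encoded mt-Nd1, mt-Nd5 and mt-Co1.

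The 12 highest genes have short coding sequences, from 171 nt (Uqcr11) to 954 nt (Zfp771), where that of Mki67 has 9534 nt. Scand1 (chr2:156311847-156312704), a SCAN-domain protein, stood at 14.7, 24.1 and 25.6 CPM in the cytoplasm and at 43.8, 54.7 and 140 CPM in polysomes of cultures 1, 2 and 3, a fitted log2 ratio of 1.74 ± 0.25 (FDR 0.0019). H2afj, a histone H2A variant, rose from 36.0, 45.1 and 52.7 CPM to 87.5, 117 and 202 CPM (1.53 ± 0.14). Both genes separated the fractions fully, and culture 3 again had the largest gap. Ccdc85b (1.45), Zfp771 (1.42), 2310039H08Rik (1.36) and Rnaseh2c (1.35), a subunit of ribonuclease H2, came next. The respiratory subunits Cox8a and Uqcr11 (1.33 and 1.29), the complex I assembly factor Ndufaf8 (1.27), the selenoprotein Selenom (1.33), Ppp1r35 (1.33) and Crip1 (1.26) completed the set.

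**Figure D3:**
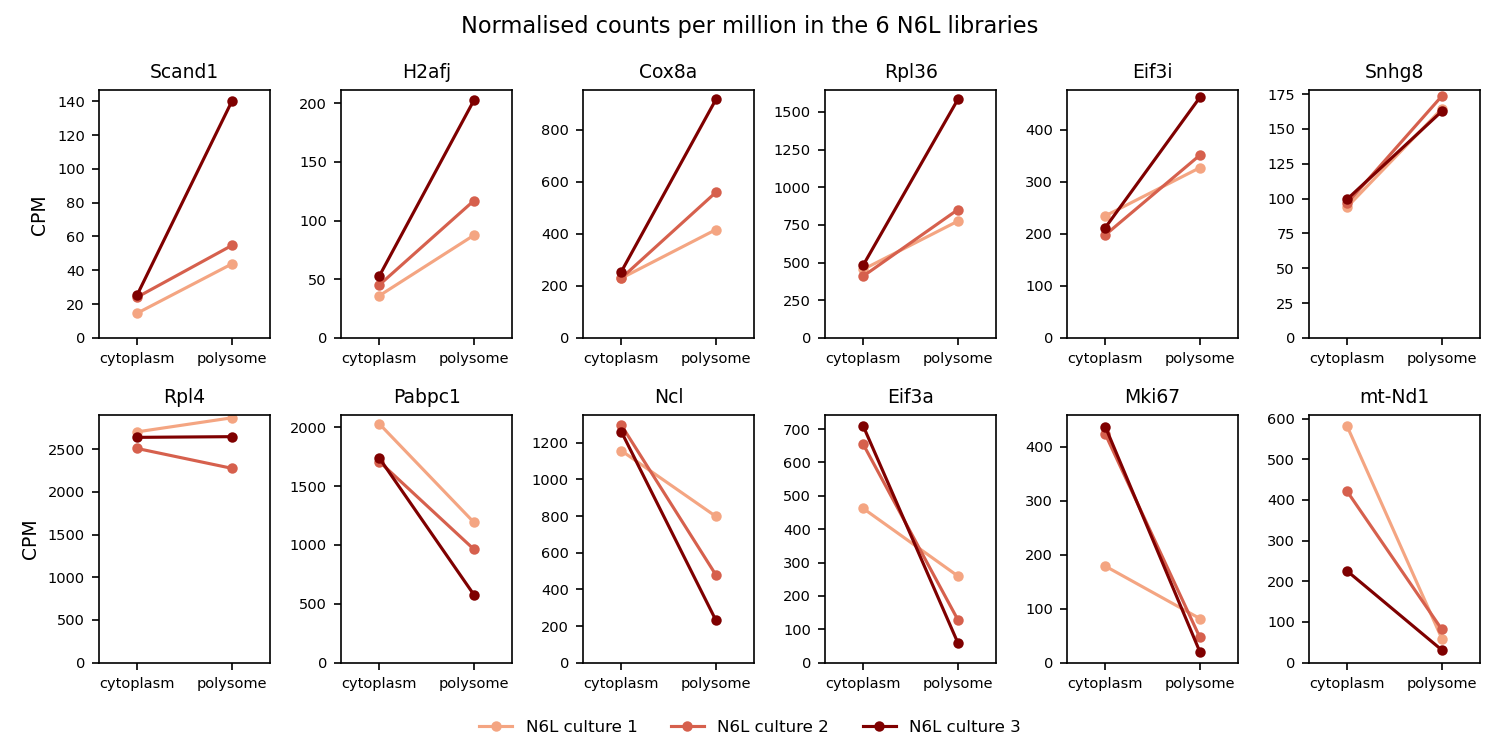
Normalised CPM (vertical, from 0) in the cytoplasmic and polysomal library of each N6L culture, with a line joining the 2 libraries of a culture, for 12 named genes. Scand1, H2afj, Cox8a, Rpl36, Eif3i and Snhg8 were higher in polysomes in each culture, Pabpc1, Ncl, Eif3a, Mki67 and mt-Nd1 lower, and Rpl4 level (log2 ratio −0.02).

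The 3 highest and the 3 lowest nuclear genes differ visibly in the letters of their reading frames, which are shown because base composition graded with the ratio over the whole transcriptome. The lines give 60 bases, or 20 codons, from the middle of each coding sequence (GENCODE vM21, GRCm38), 5′ to 3′, with G or C at the last base of a codon (the wobble position) in capitals. Of 20 wobble positions, 17, 20 and 16 were G or C in the 3 higher genes and 5, 10 and 10 in the 3 lower genes. Such short windows need not match the whole coding sequence. There the shares were 87.4%, 93.1% and 77.3% in the higher genes and 40.4%, 38.7% and 55.5% in the lower genes. The median over all genes tested was 60.7%.
Scand1 (minus strand, coding bases 184 to 243): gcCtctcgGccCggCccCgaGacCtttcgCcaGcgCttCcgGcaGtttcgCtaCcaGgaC
H2afj (plus strand, coding bases 163 to 222): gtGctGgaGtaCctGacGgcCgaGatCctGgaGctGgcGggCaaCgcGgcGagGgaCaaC
Ccdc85b (minus strand, coding bases 274 to 333): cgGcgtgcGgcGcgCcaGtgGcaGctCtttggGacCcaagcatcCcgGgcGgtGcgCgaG
Mki67 (minus strand, coding bases 4735 to 4794): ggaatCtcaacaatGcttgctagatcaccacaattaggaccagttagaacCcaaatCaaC
Bod1l (minus strand, coding bases 4519 to 4578): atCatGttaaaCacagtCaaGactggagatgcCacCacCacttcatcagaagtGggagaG
Map1b (minus strand, coding bases 3667 to 3726): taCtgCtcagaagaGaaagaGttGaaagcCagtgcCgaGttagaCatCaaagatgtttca

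Coding length graded with the ratio. Nuclear protein-coding genes were ranked by the coding length of their annotated transcripts and divided into 10 classes of nearly equal size. In the shortest class (up to 531 nt, 1219 genes) the median log2 ratio in N6L was 0.63, with 65.2% of genes higher in polysomes and 3.69% lower. In the longest class (from 3495 nt, 1209 genes) it was −0.93, with 1.49% higher and 77.8% lower. The medians fell from each class to the next, and Spearman's rho over 12096 genes was −0.61. It was −0.38 for the length of the 3′ untranslated region and −0.13 for that of the 5′ untranslated region, and −0.65 over 12104 genes for the length of the longest annotated transcript. The 3 cultures differed in the size of the step and not in its direction: from 0.45 to −0.54 in culture 1, from 0.56 to −0.84 in culture 2 and from 0.86 to −1.43 in culture 3. In NT cultures the fitted medians ran from 0.25 to −0.25.

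GC content at the wobble position graded the other way (rho 0.53 over 12096 genes). The 10 classes were formed as for length. Genes with up to 43.1% G or C there had a median log2 ratio of −0.90, with 72.2% of 1211 genes lower in polysomes, and genes from 73.4% had one of 0.38, with 45.2% of 1210 genes higher. Culture 1 spanned −0.46 to 0.15 over these classes and culture 3 spanned −1.35 to 0.63. Length and composition each graded the ratio within classes of the other. With both features divided into 3 classes, the median among long coding sequences was −1.05 where wobble GC was low (1620 genes) and −0.07 where it was high (1049 genes). Among short coding sequences, the same medians were 0.07 (1092 genes) and 0.61 (1564 genes).

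**Figure D4:**
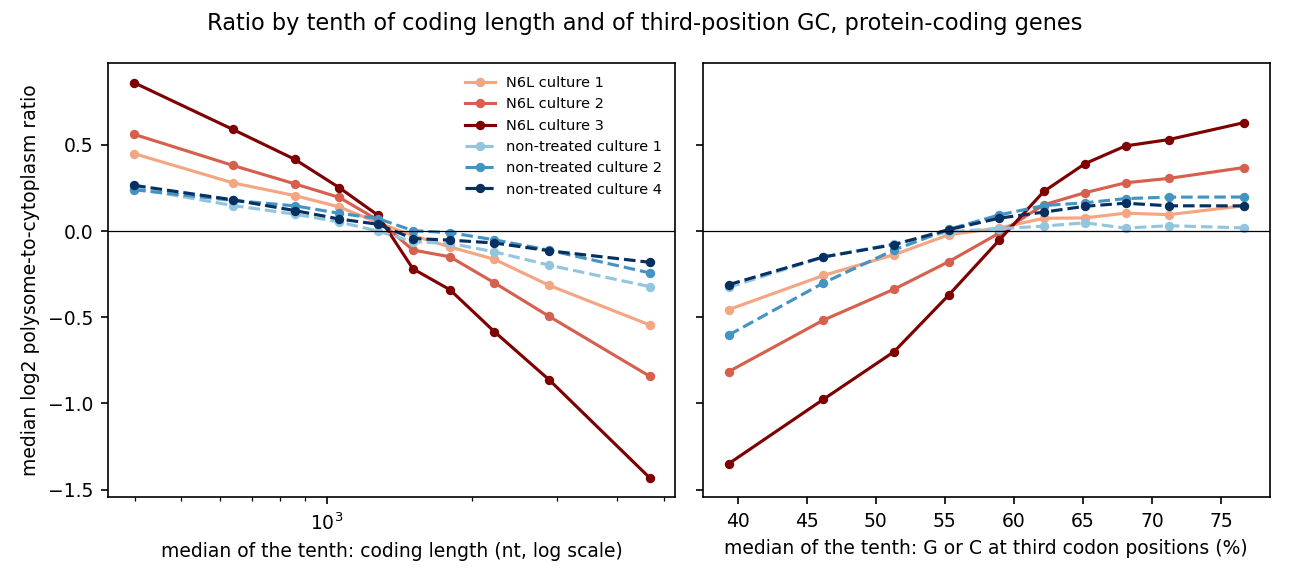
Median log2 polysome-to-cytoplasm ratio (vertical) of each of 10 classes of nuclear protein-coding genes by coding length (left, log scale, nt) and by GC at the wobble position (right, %), with solid lines for N6L cultures and dashed lines for NT cultures. In N6L culture 3 the medians run from 0.86 to −1.43 over coding length, the steepest line of the 6 cultures.

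The gene lists below were written from textbook knowledge with earlier results of these samples known. Ribosomal protein and other 5′TOP, eIF3, oxidative phosphorylation, mitochondrial ribosomal, mitotic, DNA repair, nuclear transport and phosphoinositide genes are groups that the study itself singled out on these samples, so their direction is not independent evidence. Their counts are to be read against 26.1% higher and 27.6% lower over all genes tested, whose median was 0.02. The lists also differed in coding length, whose median over all genes was 1389 nt. It was 456 nt for ribosomal proteins, 420 nt for oxidative phosphorylation, 2662.5 nt for mitotic genes and 4999.5 nt for chromatin modifiers. The shortest of the 10 length classes had 65.2% of genes higher, and the longest had 77.8% lower. Whether a list departs from genes of like coding length was not tested.

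mRNAs of the translation machinery divided by class. Of 86 cytosolic ribosomal protein genes, 82 were tested. In all, 79 were higher in N6L polysomes, none was lower, and the median log2 ratio was 0.83 (0.58, 0.72 and 1.09 in cultures 1, 2 and 3, and 0.26 fitted in NT). Rpl36 was at 455, 410 and 483 CPM in the cytoplasm and at 775, 852 and 1583 CPM in polysomes (1.18 ± 0.17), and Fau reached 1.12. Members that missed the limit included Rpl4 (2705, 2509 and 2640 against 2869, 2277 and 2648 CPM, with overlapping fractions, FDR 0.89) and Rps2 (0.32, FDR 0.12). Many ribosomal protein genes have near-identical pseudogenes that can share their reads. Among 22 elongation factors and other 5′TOP mRNAs, 11 were higher and 3 lower (median 0.30). Without the block by culture 9 were higher and 1 lower, on the N6L libraries only 8 and 1, and on library totals alone 9 and 5. Eif5a was the highest (0.88) and Pabpc1, the poly(A)-binding protein, the lowest: it stood at 2029, 1709 and 1739 CPM in the cytoplasm and at 1192, 963 and 577 CPM in polysomes (−1.06 ± 0.17). In NT cultures Pabpc1 was at −0.91 and passed the limit too (FDR 0.044). Npm1 was also lower in N6L polysomes (−0.65, FDR 0.044), with its fractions close in culture 1 (1208 and 1179 CPM).

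The start sites of 4 ribosomal protein genes are shown as examples of the 5′TOP tract, taken by abundance from those with the motif at their annotated start (RefSeq, GRCm38.p6). Each line runs 5′ to 3′ from 10 bases before the start to 20 bases from it, and capitals mark the pyrimidine run that opens the transcript.
Rplp2, chr7:141447641-141447670, plus strand: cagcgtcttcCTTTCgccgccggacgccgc
Rps21, chr2:180257369-180257398, plus strand: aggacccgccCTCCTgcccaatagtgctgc
Rps18, chr17:33955646-33955675, minus strand: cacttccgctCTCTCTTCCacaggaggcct
Rpl14, chr9:120571507-120571536, plus strand: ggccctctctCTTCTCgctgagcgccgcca

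These 4 mRNAs had log2 ratios of 1.05, 1.07, 0.99 and 0.67. The motif searched was a C at the annotated start followed by at least 4 bases that are each C or T, on the transcript's strand only. It was carried by 2.97% of the 9568 tested genes with a promoter entry and by 2.51% of all 32851 entries. The 284 genes with it had a median log2 ratio of 0.12, against −0.01 for the rest, and 88 were higher and 70 lower. Of 61 ribosomal protein genes with an entry, the 14 that carried the motif had a median of 0.94 and the other 47 one of 0.81, while carriers outside that family had one of 0.08, which became −0.05 with at least 6 pyrimidines and 0.02 with a start within 3 bases. A missing match says only that these letters are not at the annotated start.

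The 14 eIF3 genes did not move as a block. Eif3a (chr19:60761117-60790658), the largest scaffold subunit, stood at 462, 654 and 709 CPM in the cytoplasm and at 260, 128 and 59.1 CPM in polysomes, a log2 ratio of −2.26 ± 0.44 (FDR 0.0032). The ratios of Eif3a in cultures 1, 2 and 3 were −0.83, −2.35 and −3.58. Eif3c, its partner in the core of the complex, was at 666, 588 and 636 against 610, 398 and 298 CPM (−0.59 ± 0.16, FDR 0.012). The fractions of Eif3a separated fully, whereas those of Eif3c overlapped, since its polysomal level in culture 1 exceeded the cytoplasmic level in culture 2. Eif3j1 and Eif3j2, near-identical copies whose reads cannot be assigned with certainty, were lower as well (−0.79 and −0.61). By contrast, 6 subunits were higher: Eif3i (0.81), Eif3k (0.74), Eif3g (0.70), Eif3f (0.57), Eif3h (0.52) and Eif3d (0.33). Eif3e, Eif3m, Eif3l and Eif3b, at −0.09 to 0.20, did not pass. Eif3j2 stood at 0.25 after correction for length and GC content, the opposite direction.

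Other initiation factors were divided as well, with 11 of 31 higher (7 on the N6L libraries only) and 12 lower. These shares of 35.5% and 38.7% compare with 26.1% and 27.6% of all genes tested. The ribosome-joining GTPase Eif5b was at −1.84, and the eIF4G family members Eif4g3, Eif4g2 and Eif4g1 were at −1.66, −0.82 and −0.73. The cap-binding inhibitor Eif4ebp1 was at 1.05 and Eif6, which keeps free 60S subunits apart, at 0.86. The eIF2 subunits Eif2s2 (−0.77) and Eif2s3x (−0.43) were lower, whereas Eif2b2, Eif2b4 and Eif2b5 of its exchange factor were higher (0.70, 0.54 and 0.41).

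Genes of ribosome production in the nucleolus fell into 9 higher and 14 lower of 29 (median −0.09). Ncl itself (chr1:86344719-86359400), whose protein N6L binds, had the lowest ratio of them. Its cytoplasmic level was 1157, 1297 and 1261 CPM and its polysomal level 798, 478 and 231 CPM. The cytoplasmic values lay close together and the polysomal ones differed by culture, with the least loss in culture 1. The log2 ratio was −1.47 ± 0.31 (FDR 0.0042). The box C/D factor Nop58 (−1.07), the helicase Ddx21 (−1.12), the pseudouridine synthase Dkc1 (−1.25) and Utp20 (−1.43) were lower, while Nhp2 (1.05), Nop10 (0.85) and Gar1 (0.54), which form the H/ACA complex with Dkc1, were higher. Thus subunits of a single particle stood on both sides.

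In energy metabolism, nuclear and mitochondrial genomes differed. Of 80 nuclear-encoded oxidative phosphorylation genes tested (84 listed), 73 were higher in polysomes and 1 lower, with a median of 0.87 (0.62, 0.76 and 1.22 by culture). Cox8a stood at 229, 229 and 254 CPM in the cytoplasm and 416, 559 and 915 CPM in polysomes. The lower member was Ndufs1, the largest complex I subunit (−0.64, FDR 0.038, with overlapping fractions and a ratio of 0.04 in culture 1). Without the block by culture, and on the N6L libraries only, 0 members of the list were lower. Mitochondrial ribosomal proteins were higher in 67 of 78 and lower in 1, Mrpl1 (−0.48), which stood at 0.52 after correction for length and GC content.

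Transcripts made inside mitochondria, which cytosolic ribosomes do not read, gave the reverse. Of 13 such mRNAs 7 were tested, of which 6 were lower and mt-Nd6 missed the limit (−1.53). mt-Nd1 was at 581, 421 and 225 CPM in the cytoplasm and at 59.1, 81.6 and 30.9 CPM in polysomes (−2.84 ± 0.17, FDR 0.00057), without overlap. All mitochondrial genes together took 0.242%, 0.189% and 0.121% of cytoplasmic counts in cultures 1, 2 and 3 and 0.0450%, 0.0384% and 0.0157% of polysomal counts. In NT cultures mt-Nd1 was at −4.05 (FDR 3.5e-05), and 6 of the 7 were lower there too, so this depletion was present without N6L.

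Proteasome, cytoskeletal, S100 and selenoprotein genes were higher more often than the 26.1% of all genes. Proteasome subunits were higher in 21 of 35, led by the catalytic subunits Psmb10 (1.09) and Psmb6 (1.01), and lower in 1, the scaffold Psmd1 (−1.20). Actin and tubulin genes were higher in 22 of 29 and none was lower, but 12 were higher without the block by culture, 10 on the N6L libraries only and 13 after correction for length and GC content. Myl6 reached 1.12 and Pfn1 0.79, whereas Vim had −0.14 and Tpm4 −0.07, neither past the limit. Of 23 keratins, S100 proteins and annexins 14 were higher, among them each of the 8 S100 genes tested (0.47 to 1.12), and none was lower. Selenoproteins, which recode UGA, were higher in 11 of 17, with Gpx4 at 1.14, and lower in 3 (Selenoi −0.64, Txnrd1 −0.45 and Selenot −0.41). Without the block by culture 11 selenoproteins were higher and 1 lower, and on the N6L libraries only 8 and 1. After correction for length and GC content 10 were higher and 0 lower. Glycolysis enzymes were higher in 6 of 18 (3 on the N6L libraries only), a share near that of all genes, among them Tpi1 and Gapdh (0.72 each), and lower in 2, Hk2 (−0.90) and Hk1 (−0.28).

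Lower members prevailed in the families of the dividing nucleus. Mitotic spindle and kinetochore genes were lower in 36 of 52 and higher in 7 (median −1.04, with −0.52, −0.98 and −1.77 by culture). Cep290 (under 10 CPM on average), Cenpe, Kif20b and the condensin subunit Smc4 were at −2.53, −2.53, −2.52 and −2.20. The small Spc24, Cenpa, the histone of centromeres, and Ube2c were instead at 0.87, 0.77 and 0.74. Chromatin modifiers were lower in 56 of 66 and higher in 1, Hdac3 (0.29). Atrx, Ash1l, Bptf and Ep300 were at −2.31, −2.13, −2.01 and −1.90. Fanconi and homologous recombination genes were lower in 23 of 40 and higher in 4. Atm, the double-strand break kinase, was at 18.4, 21.6 and 19.3 CPM in the cytoplasm and 9.39, 5.86 and 2.66 CPM in polysomes (−1.85), whereas Fance and Mus81 were at 0.88 and 0.73.

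Zinc-finger Zfp genes were lower in 189 of 322 (112 after correction for length and GC content) and higher in 27 (11 on the N6L libraries only), median −0.68, with Zfp771 at 1.42 and Zfp955a at −1.89. Nuclear pore and transport genes were lower in 33 of 53, with Ranbp2 at −2.10 and Tpr at −1.91, and higher in 6 (1 on the N6L libraries only), with Ran at 0.52. Phosphoinositide kinases and phosphatases were lower in 27 of 48 and higher in 3. Pik3c2a (−1.56), the catalytic Pik3ca (−1.02) and the adaptor Pik3r1 (−1.06) were lower and the adaptor Pik3r2 was higher (0.55, but −0.01 after correction for length and GC content). Cytosolic chaperones were lower in 10 of 28 (5 on the N6L libraries only) and higher in 5, with Hsp90aa1 at −1.54 and Hspb1 at 0.72.

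**Figure D5:**
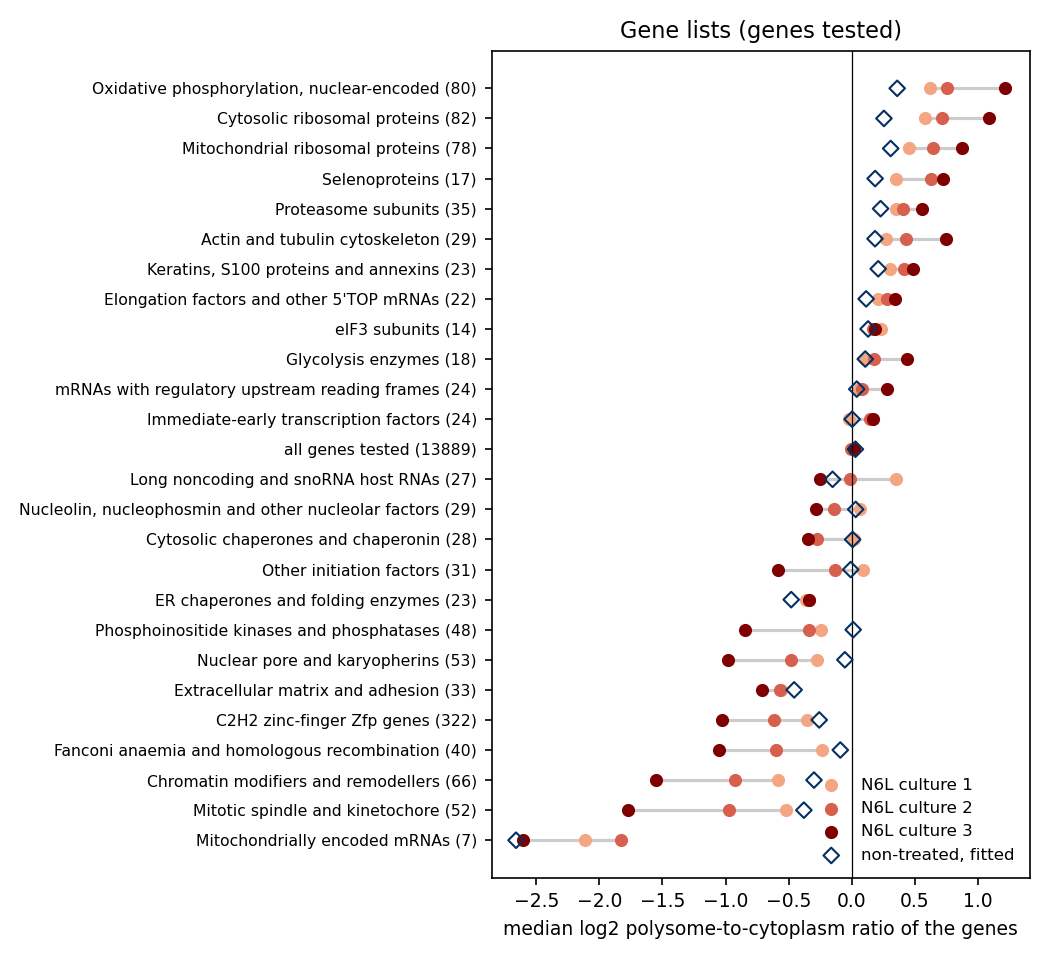
Median log2 polysome-to-cytoplasm ratio (horizontal) of each gene list in N6L cultures 1, 2 and 3 (filled points joined by a line) and fitted in NT cultures (open diamonds), with the number of genes tested in brackets. Culture 3 lies farthest from 0 in the ribosomal protein, oxidative phosphorylation, mitotic and chromatin lists, while the medians of the 3 N6L cultures nearly coincide for endoplasmic reticulum (ER) chaperones (−0.36, −0.34 and −0.34).

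ER chaperones and folding enzymes were lower in 12 of 23 (5 without the block by culture) and higher in 3, with medians of −0.36, −0.34 and −0.34 in cultures 1, 2 and 3 and −0.48 fitted in NT. Hsp90b1 (184, 209 and 204 against 100, 82.5 and 53.0 CPM) was at −1.38, with −1.19 in NT, and its ratios of −0.88, −1.34 and −1.94 differed by culture although the list's medians did not. Hspa5, the main ER chaperone, was at −0.85 with −0.83 in NT. Both passed the limit in NT as well, as did 7 of the 23 against 1.46% of all genes tested. The 3 higher members were Sdf2l1 (0.89, with 0.45, 0.79 and 1.42 by culture), Manf (0.52) and Herpud1 (0.46). Extracellular matrix and adhesion genes were lower in 19 of 33 and higher in 2, Timp1 (0.64) and Itgb5 (0.39, but −0.01 after correction for length and GC content). Their medians were −0.56, −0.57 and −0.71, with −0.46 in NT, and Itga6 and Itgav were at −1.20 and −1.16 in N6L and −0.94 and −0.97 in NT.

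Immediate-early genes and mRNAs with upstream reading frames had members on both sides, as did all genes tested (26.1% higher and 27.6% lower). The shares were 33.3% higher and 29.2% lower for immediate-early genes, near those of all genes. They were 41.7% and 33.3% for mRNAs with upstream reading frames. Of 24 immediate-early factors, 8 were higher, among them Jund (290, 436 and 487 against 477, 832 and 1313 CPM, log2 ratio 1.03) and Ier2 (0.74), and 7 lower, among them Klf6 (−0.95) and Fosl2 (−0.55). The fractions of Jund and Ier2 overlapped between cultures, although polysomes were higher within each. Without the block by culture 7 were higher and 2 lower, and on the N6L libraries only 5 and 2. The list's median was 0.12 and changed sign to −0.01 on library totals alone. Of 24 mRNAs with known regulatory upstream reading frames, 10 were higher, including the stress factors Cebpb (0.83), Atf5 (0.64), Atf4 (0.61) and Ddit3 (0.57), and 8 lower, including Eprs (−1.41) and Hif1a (−1.23).

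Pseudogenes, 727 tested, had a median of 0.36, and long noncoding RNAs, 858 tested, had one of 0.31. Of the long noncoding RNAs 206 were higher (24.0%, against 26.1% of all genes tested) and 63 lower (7.34%, against 27.6%). Among those with at least 10 CPM, 2010320M18Rik (1.17), 2410006H16Rik (1.04) and B230206L02Rik (0.97) were highest and Gm37494 (−1.44), Gm16973 (−1.10) and B230354K17Rik (−1.10) lowest. In the list of known noncoding RNAs 8 of 27 were higher and 8 lower (29.6% each, near the shares of all genes tested). Among these, the snoRNA hosts Snhg8 (94.0, 96.7 and 99.6 against 164, 174 and 163 CPM, log2 ratio 0.79 ± 0.11) and Zfas1 (0.68) were higher in each culture by similar amounts. The nuclear RNAs Malat1, Tug1, Neat1 and Kcnq1ot1 were lower (−1.09, −0.99, −0.95 and −1.36).

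After correction for transcript length and GC content within the same model, 6596 genes passed, 4789 of them also in the uncorrected fit. The correction used the median length and median GC content of a gene's annotated transcripts, not coding length or wobble GC. Spearman's rho with the N6L ratio was −0.37 for that length and −0.61 for coding length. Whether grading by coding length remained after the correction was not tested. Ribosomal proteins (median 0.58, 70 of 82 higher), nuclear oxidative phosphorylation genes (0.65, 71 of 80 higher) and chromatin modifiers (−0.74, 59 of 66 lower) kept the greater part of their ratio. Extracellular matrix genes moved farther from 0, from −0.60 with 19 of 33 lower to −0.67 with 25 lower. The medians came closer to 0 by more than 1.5 times for mitotic genes (−0.43), Fanconi and recombination genes (−0.36), nuclear pore genes (−0.28), Zfp genes (−0.19), ER chaperones (−0.19), cytosolic chaperones (−0.10), phosphoinositide genes (−0.04), actin and tubulin genes (0.22) and keratins, S100 proteins and annexins (0.16). The medians of glycolysis (0.17 to −0.11), immediate-early (0.12 to −0.15) and other initiation factor genes (−0.21 to 0.10) changed sign.

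The same comparison in NT cultures asks how much of the separation exists without N6L. There 203 genes passed (1.46%), 7 higher and 196 lower in polysomes, and 190 of them also passed in N6L in the same direction. That count rests on a spread estimated together with the N6L cultures. Leaving out 1 culture moved it between 6 and 3598, with 2084, 45 and 3598 without N6L culture 1, 2 and 3. With DESeq2 it was 1069. The shares of 1.46% in NT and 53.7% in N6L therefore do not compare the size of the separation. Of the 7460 genes that passed in N6L, 6942 (93.1%) had the same direction in NT, where the median log2 ratio was 0.25 for the higher and −0.35 for the lower genes. The test of the difference between the N6L and NT ratios passed for 0 genes (0%) with edgeR, with a smallest FDR of 0.20, while 2996 genes had an unadjusted p under 0.05 and DESeq2 called 448. Without N6L culture 1, whose ratios were the least spread, edgeR called 3685. Values side by side were −2.93 in N6L and −1.47 in NT for Mki67, −2.26 and −0.98 for Eif3a, −1.47 and −0.58 for Ncl, 1.18 and 0.47 for Rpl36, and 1.74 and 0.33 for Scand1. For Snhg8 they were 0.79 and 0.06 (difference 0.72 ± 0.15), for H2afj 1.53 and 0.47 (1.06 ± 0.19) and for mt-Nd1 −2.84 and −4.05 (1.21 ± 0.23), each with an FDR of 0.20. Both fractions of mt-Nd1 differed between treatments. Its cytoplasmic level was 225 to 581 CPM in N6L and 1469 to 3613 CPM in NT. Its polysomal level was 30.9 to 81.6 CPM in N6L and 78.0 to 226 CPM in NT.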

How the data were processed

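Messenger RNA of the cytoplasmic and polysomal fractions was selected with oligo(dT) and sequenced from strand-specific TruSeq libraries. Per the labels, the authors demultiplexed with bcl2fastq 2.18.0.12, aligned to mm10 with STAR and counted reads per gene with HTSeq 0.5.3; the deposited values are raw counts per gene, not normalised. How strand and multiply mapped reads were handled is not given in the sources used here. Counts of the 4 technical replicates of each library were summed. Symbols, coordinates, lengths and base composition came from GENCODE vM21 (GRCm38).

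The 12 libraries (19519911 to 44972333 counts) were fitted with edgeR 4.0.16 (R 4.3.3): filterByExpr, TMM scaling, a quasi-likelihood F-test, culture as a block and a fraction effect for each treatment, with Benjamini-Hochberg adjustment over all 13889 genes and an FDR limit of 0.05. Ratios per culture are differences of log2 CPM with a prior count of 2. The pairing comes from the lysate that both fractions share; deviations of the 2 libraries of a culture from their group means had r = 0.04, 0.20 and 0.23 in the N6L cultures. Sign flips over 3 cultures allow no p below 0.25 and were not used. The fit was tested on simulated data.

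The members and lists were chosen with earlier results of these data known. Genes were named by rule: the 12 highest and 12 lowest protein-coding genes past the limit, of the same sign in 3 of 3 cultures and with at least 10 CPM on average, the 3 highest and 3 lowest long noncoding RNAs, the 2 highest and 2 lowest members of each list, and Ncl, Eif3a and Eif3c; further list members are given as examples chosen after their values were seen. The alternatives were RLE factors or library totals, other filters, DESeq2 1.42.0, technical replicate a alone, conflicting labels left out, N6L libraries alone, no block, a correction for median transcript length and transcript GC content, and each culture left out. The value of 1 list member is not reported here.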

Additional observations from a re-analysis of the deposited data

How the results depend on the processing

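With the FDR limit alone, the N6L comparison called 5415 genes without the replicate block on all 12 libraries, and on the N6L libraries only 5075 with the replicate block, 4467 with no replicate block and 4885 with the replicate block and the length and GC correction. The last of these was chosen after seeing the data. It called 4988 to 8303 genes when a culture was left out, and 1806 when an absolute log2 difference of at least 1 was also required. The NT comparison called 29 genes with no replicate block, 55 on library totals alone, 1693 with no filter on low counts, 1069 with DESeq2, 122 from technical replicate a alone, 717 after the length and GC correction and 86 with the limit on size. When a culture was left out it called 6 to 3598, with 2084, 45 and 3598 without N6L culture 1, 2 and 3 and 8, 8 and 6 without NT culture 1, 2 and 4. The difference between treatments reached 1360 genes with no filter on low counts and 448 with DESeq2. Leaving out a culture gave 0 to 3685, and only the fit without N6L culture 1 called any. The cause was not tested.

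Of 121 named genes, 84 kept direction and call under all alternatives run for them. Direction changed under the length and GC correction with all libraries and with the N6L libraries only for Eif3j2 (0.25 and 0.26), Mrpl1 (0.52 and 0.52), Itgb5 (−0.014 and −0.013) and Pik3r2 (−0.0058 and −0.0051), and with all libraries alone for Mrpl47 (0.24) and Hdac5 (−0.27), neither of which passed the limit in the first place. Of 25 list medians, 21 kept their sign throughout. The median of start-motif carriers was 0.04 with at least 6 pyrimidines and 0.04 with a start within 3 bases. The step from the shortest to the longest class was 0.97 by median transcript length and 1.63 by the longest transcript. With 3 cultures a treatment, the comparison of treatments had little replication.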
